A study of Mus musculus with 2 samples.

Results

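Hox genes encode homeodomain transcription factors that lie in 4 chromosomal clusters, Hoxa to Hoxd, and are numbered by paralogue group from 1 to 13. Within a cluster the order of the genes matches the order of their expression along the body axis, with low numbers reaching towards the head and high numbers restricted to the trunk and tail. In the mouse embryo, genes of the lowest groups are expressed in progenitors of the heart that lie behind the pharynx, whereas genes of the middle groups are known from the mesenchyme of the lung and gut, the neural tube and the vertebrae. The members were all gene entries named Hoxa, Hoxb, Hoxc or Hoxd followed by a number, which gave 39 of 55348 entries.

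Levels were read from 2 RNA-seq libraries of mouse hearts collected at E13.5 in strain 129sv, 1 of wild type and 1 of Lmna H222P/H222P embryos, which carry the H222P missense mutation on both copies of Lmna. This mutation models the cardiomyopathy of lamin A/C disease. The labels name no treatment that differed, and give neither the number and sex of the embryos behind a library nor how the hearts were trimmed. The wild-type library had 32669225 reads on genes, against 25120790 for H222P. With 1 library per genotype there was no replicate check, and no p-value was computed. The 95% intervals given are exact and cover counting error only, since the labels name no molecular identifiers and several reads may be copies of 1 molecule. Levels are given in CPM, the usual count per unit of library size, scaled between the libraries, at which 3 reads correspond to 0.0968 CPM in wild type and 0.113 CPM in H222P. The list of cardiomyocyte markers summed to 25499 CPM in wild type and 13654 CPM in H222P, so both libraries held abundant heart muscle RNA.

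Hox transcripts were low in both hearts and higher in the H222P library. All 39 genes together had 1987 reads (64.1 CPM) in wild type and 3891 reads (147 CPM) in H222P, a 2.29-fold difference (95% interval 2.17 to 2.42). In such bulk samples, more cells that express a Hox gene and more RNA per cell cannot be told apart. Of the 39 genes, 31 had at least 1 read in either library, and each of those 31 had a ratio above 1, against 51.9% of all entries with at least 1 read. At least 2-fold higher fitted ratios were found for 20 of these 31, against 17.4% of such entries, but 4 of the 20 had 0 wild-type reads and a fitted ratio that depends on the prior count. A mean of at least 1 CPM was reached by 15 Hox genes. All 15 had a ratio above 1, against 49.2% of the 14716 genes at that level. Of the 15, 10 were at least 2-fold higher in H222P, against 5.95% of genes at that level, and 0 were at least 2-fold lower, against 4.35%. In the range of 1 to 20 CPM, which holds these genes except Hoxa5, the share at least 2-fold higher was 11.2% of 6508 genes. For all 15 the whole counting interval lay above a ratio of 1, against 31.6% of genes, and for 8 it lay above 2, against 4.05%. Hoxa7, Hoxb7, Hoxc4 and Hoxc5 reached the mean of 1 CPM only through the H222P library, and so had to differ. Among the 11 Hox genes with at least 1 CPM in wild type, 6 were at least 2-fold higher, against 3.48% of genes chosen in the same way.

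**Figure D1:**
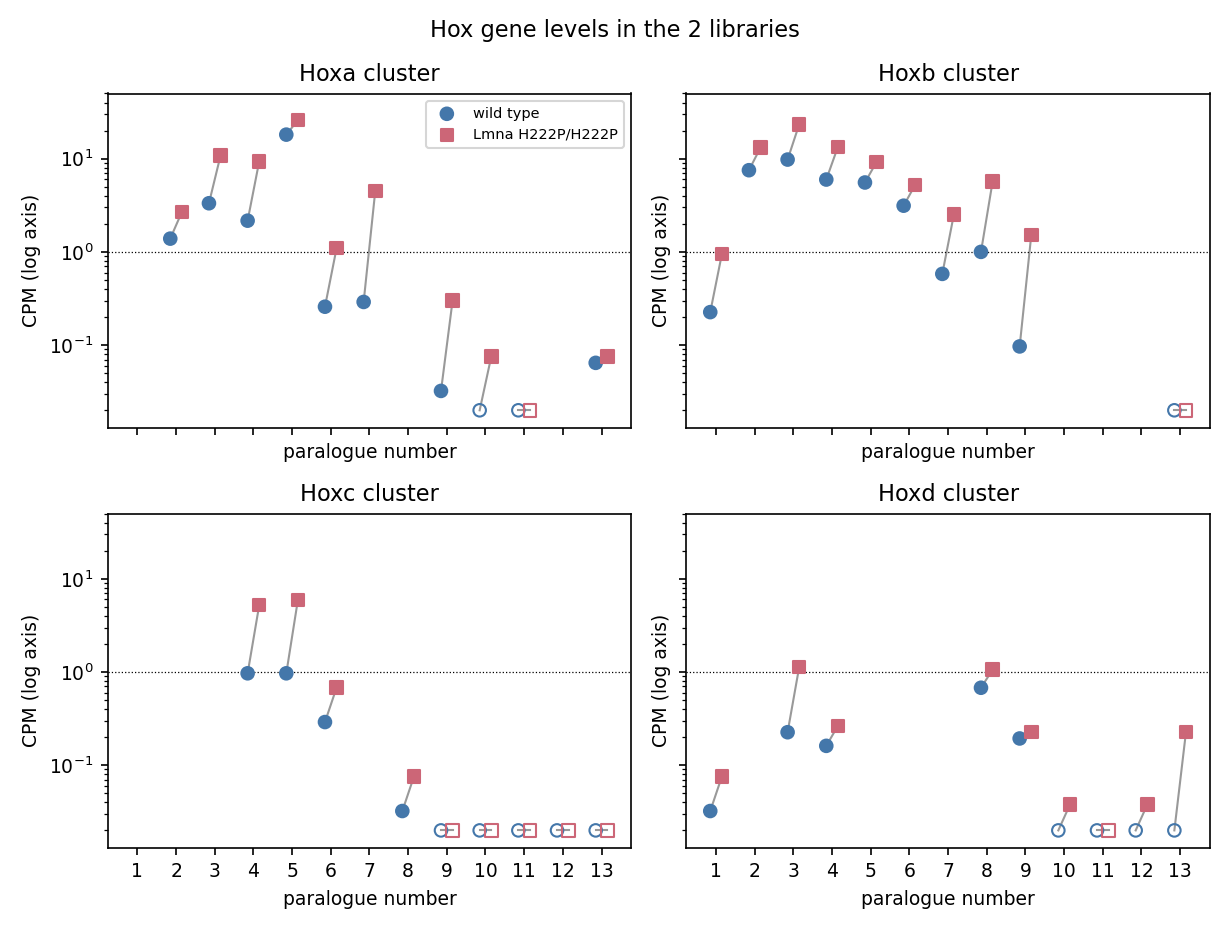
Level of 38 Hox genes in CPM (log axis) by paralogue number, 1 panel per cluster, with circles for the wild-type library, squares for the H222P library and a line joining the same gene. Open symbols at the foot mark 0 reads, and the dotted line marks 1 CPM. Squares lie above circles for each plotted gene with reads, and Hoxa5 is the highest gene in both libraries.

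Among the anterior genes, those of groups 1 to 3, the summed reads were 731 in wild type and 1440 in H222P, a 2.30-fold difference (2.11 to 2.52). Hoxb3, a gene of the hindbrain and the third pharyngeal arch (chromosome 11, 96323326 to 96347930, mm10), had 303 reads (9.78 CPM) in wild type and 618 reads (23.3 CPM) in H222P, 2.38-fold higher (2.08 to 2.75). It carried the most reads of this set in each library. Hoxa3, which the mouse needs to form the thymus and parathyroids from the third pharyngeal pouch (chromosome 6, 52169062 to 52213336), had 103 reads (3.32 CPM) and 286 reads (10.8 CPM), 3.24-fold higher (2.58 to 4.11). Hoxd3, the remaining gene of group 3, was at a log2 ratio of 2.25 (1.11 to 3.76) from 7 and 30 reads, but 62.3% of its exon length is shared with Hoxd4 and Gm28230 on the same strand, and reads there are ambiguous between these genes.

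The group 2 genes differed less. Hoxb2, a hindbrain gene (chromosome 11, 96350525 to 96354012), had 233 reads (7.52 CPM) in wild type and 348 reads (13.1 CPM) in H222P, 1.75-fold higher (1.48 to 2.07). Hoxa2, which sets the identity of the second pharyngeal arch (chromosome 6, 52162417 to 52164831), had 43 and 71 reads, 1.92-fold higher (1.30 to 2.89). Neither reached 2-fold, although scaling by total counts moved Hoxa2 past it, to 1.10 on the log2 scale. The deposited unstranded column put Hoxb2 just past 2-fold. There Hoxb2 had only 30 and 52 reads in place of 233 and 348, so that ratio does not come from adding reads of the other strand.

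Group 1 includes Hoxb1, which marks heart progenitors of the second heart field in the mouse. Hoxb1 (chromosome 11, 96365752 to 96368256) had 7 and 25 reads, 3.98-fold higher (1.76 to 11.4). Hoxd1 had 1 read and 2 reads, a ratio that its interval leaves between 0.122 and 138.

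Central genes, groups 4 to 8, held most Hox reads: 1244 in wild type and 2385 in H222P, a 2.24-fold difference (2.09 to 2.40). Hoxa5, a regulator of the mesenchyme of the lung and upper airway (chromosome 6, 52201754 to 52204587), was the most abundant Hox gene, with 561 reads (18.1 CPM) in wild type and 685 reads (25.9 CPM) in H222P. Its ratio of 1.43 (1.28 to 1.60) was the lowest of the 15 genes whose mean reached 1 CPM. Without Hoxa5 the sum of the other 38 genes was 2.63-fold higher in H222P (2.47 to 2.80).

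The neighbours of Hoxa5 in cluster a differed far more. Hoxa4, a gene of cervical axial identity (chromosome 6, 52189671 to 52191753), had 67 reads (2.16 CPM) in wild type and 248 reads (9.36 CPM) in H222P, 4.31-fold higher (3.29 to 5.76). Hoxa7, a gene of thoracic identity (chromosome 6, 52214491 to 52221854), had 9 reads (0.290 CPM) and 119 reads (4.49 CPM), 14.7-fold higher (7.88 to 34.7), the largest ratio among genes whose mean reached 1 CPM. Hoxa6, next to Hoxa5 on the chromosome, had 8 and 29 reads, 4.06-fold higher (1.89 to 10.7). The counting intervals of all these ratios lie above that of Hoxa5.

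Cluster b showed a similar split. Hoxb4, known from cervical identity and blood progenitors (chromosome 11, 96318267 to 96321638), had 185 reads (5.97 CPM) in wild type and 354 reads (13.4 CPM) in H222P, 2.24-fold higher (1.87 to 2.69). Hoxb5, expressed with Hoxa5 in lung mesenchyme (chromosome 11, 96303336 to 96306121), had 172 and 244 reads, 1.66-fold higher (1.36 to 2.03). Hoxb6, known from lateral mesoderm (chromosome 11, 96292476 to 96301569), had 97 and 139 reads, 1.67-fold higher (1.28 to 2.20). The intervals of Hoxb5 and Hoxb6 cover nearly the same range and do not separate them, and both overlap that of Hoxb4.

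The next 2 genes of cluster b had larger ratios from lower wild-type counts. Hoxb7 (chromosome 11, 96286623 to 96290162) had 18 reads (0.581 CPM) in wild type and 67 reads (2.53 CPM) in H222P, 4.27-fold higher (2.56 to 7.79). Hoxb8, a gene of the spinal cord and of myeloid precursors (chromosome 11, 96281905 to 96285315), had 31 reads in wild type and 150 reads (5.66 CPM) in H222P, 5.59-fold higher (3.83 to 8.62). Both intervals lie above those of Hoxb5 and Hoxb6.

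In cluster c, Hoxc4 (chromosome 15, 103018934 to 103036852) had 30 reads (0.968 CPM) in wild type and 138 reads (5.21 CPM) in H222P, 5.31-fold higher (3.60 to 8.28). Hoxc5 (chromosome 15, 102967443 to 103017429) also had 30 wild-type reads, and 157 reads (5.93 CPM) in H222P, 6.04-fold higher (4.12 to 9.38). Both belong to cervical and upper thoracic groups and made up most of the cluster, whose 9 genes summed to 70 and 315 reads, 5.26-fold higher (4.05 to 6.92). That interval lies above the ratios of cluster a (2.13, 1.96 to 2.33), cluster b (2.21, 2.05 to 2.39) and cluster d (2.37, 1.60 to 3.55). The ratio of cluster a leans on Hoxa5, which held 561 of its 828 wild-type reads and 685 of its 1510 H222P reads. A sum of cluster a without Hoxa5 was not computed. Hoxc6, with 9 and 18 reads, had a ratio of 2.28 (0.998 to 5.91), and Hoxc8, with 1 and 2 reads, could not be read. The central genes of cluster d were also near the lower limit of counting: Hoxd8 had 21 and 28 reads (ratio 1.55, 0.854 to 2.89), and Hoxd4 had 5 and 7 reads (1.60, 0.447 to 6.54), with intervals that include 1.

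**Figure D2:**
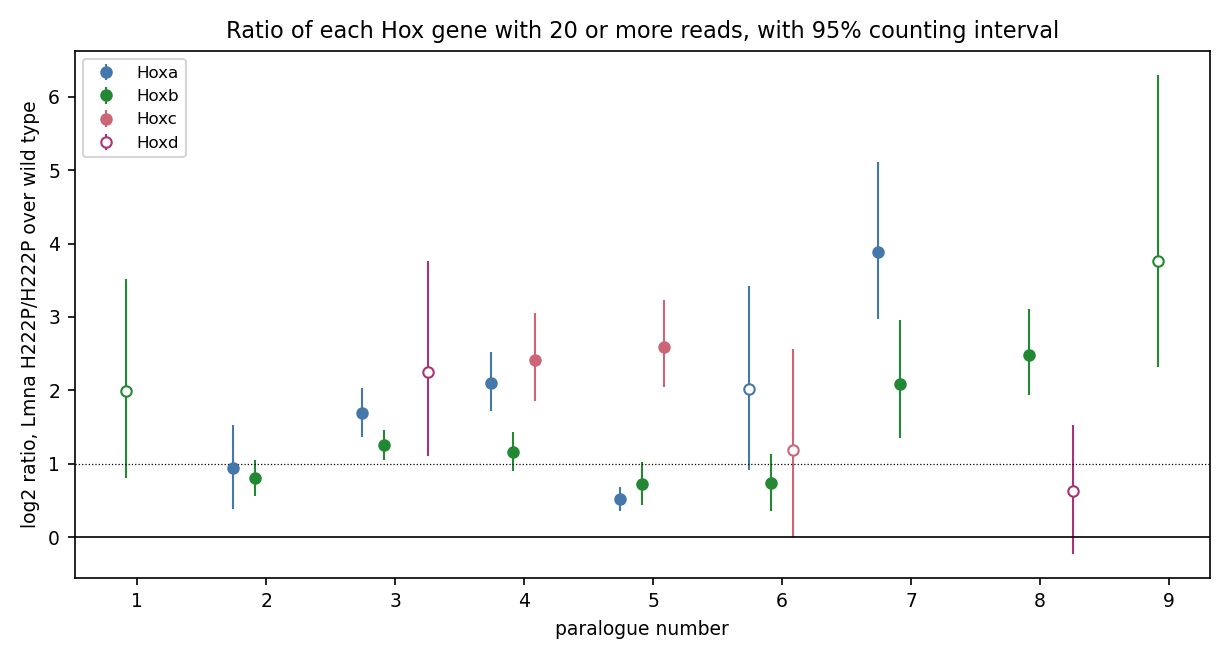
Log2 ratio of H222P over wild type (vertical axis) by paralogue number for 20 Hox genes with 20 or more reads over both libraries, coloured by cluster, with bars for the 95% counting interval. Genes with few wild-type reads reached 20 reads through the H222P library. Filled circles have a mean of at least 1 CPM, and the dotted line marks 2-fold. Hoxa5 lies lowest at 0.51, and Hoxa7 and Hoxb9 lie highest at 3.88 and 3.76.

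The DNA just upstream of these genes is shown for the 4 with a mean of at least 1 CPM whose RefSeq promoter window has no annotated exon in it, so that genes of small and large ratio can be set side by side. Each run is the 250 bases before the RefSeq start (GRCm38.p6, the same assembly as mm10), written 5′ to 3′ on the strand of the gene. Capitals mark every match, on either strand, to CCAAT (the CCAAT box), TATAAA (the TATA box), TGATNNAT (a composite site of Hox proteins with Pbx), TGACAG (a Meis site) or AGGTCA (a nuclear receptor half-site, as retinoic acid receptors use).
Hoxa5 (chr6:52204588-52204837, minus strand, ratio 1.43): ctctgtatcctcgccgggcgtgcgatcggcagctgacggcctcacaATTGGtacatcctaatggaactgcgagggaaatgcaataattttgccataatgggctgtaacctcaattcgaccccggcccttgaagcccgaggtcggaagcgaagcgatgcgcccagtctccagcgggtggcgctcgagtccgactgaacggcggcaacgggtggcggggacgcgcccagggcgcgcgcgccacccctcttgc
Hoxa2 (chr6:52164832-52165081, minus strand, ratio 1.92): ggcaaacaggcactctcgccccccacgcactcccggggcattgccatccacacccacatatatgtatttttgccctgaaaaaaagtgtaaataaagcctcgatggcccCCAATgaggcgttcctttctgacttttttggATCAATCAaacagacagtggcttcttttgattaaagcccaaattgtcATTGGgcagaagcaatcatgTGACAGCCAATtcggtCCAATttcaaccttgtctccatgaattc
Hoxb4 (chr11:96318017-96318266, plus strand, ratio 2.24): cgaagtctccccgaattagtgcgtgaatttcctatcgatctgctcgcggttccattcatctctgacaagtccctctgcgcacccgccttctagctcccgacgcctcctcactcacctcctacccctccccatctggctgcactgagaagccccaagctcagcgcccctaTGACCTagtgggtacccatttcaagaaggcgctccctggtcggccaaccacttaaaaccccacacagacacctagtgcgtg
Hoxb8 (chr11:96281655-96281904, plus strand, ratio 5.59): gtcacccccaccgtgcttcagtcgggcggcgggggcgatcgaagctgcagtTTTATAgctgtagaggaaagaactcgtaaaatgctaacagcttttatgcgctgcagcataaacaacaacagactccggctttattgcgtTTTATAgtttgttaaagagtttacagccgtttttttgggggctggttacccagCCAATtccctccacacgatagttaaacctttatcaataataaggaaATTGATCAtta

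The 4 windows differed in composition and in the motifs they hold. Hoxa5 had 63.6% G and C with 28 CpG dinucleotides and 1 match, a CCAAT box on the reverse strand. Hoxb4 had 58.0% and 14 CpG, with a single AGGTCA on the reverse strand. Hoxa2 had 46.4% and 6 CpG, and its 6 matches comprise 4 CCAAT boxes, 1 TGATNNAT and 1 TGACAG. Hoxb8 had 44.4% and 12 CpG, with 1 CCAAT box, 2 matches to TATAAA on the reverse strand and, at 11 bases before the start, 1 TGATNNAT. RefSeq windows were present for 22 of the 39 genes, 24 windows in all, with a median of 12.5 CpG against 6.0 over 32851 windows. CCAAT was found in 14 of these 24 windows and in 33.8% of all windows, TATAAA in 4 and 12.4%, TGATNNAT in 4 and 7.68%, TGACAG in 2 and 15.9%, and AGGTCA in 6 and in 4607 of all windows. These matches describe the letters of the windows and carry no evidence of binding.

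Posterior genes, groups 9 to 13, were close to absent from both hearts. Their 16 genes summed to 12 reads in wild type and 66 in H222P, a 6.43-fold difference (3.45 to 13.1), and 0 of them reached a mean of 1 CPM. Hoxb9, a gene of thoracic rib identity (chromosome 11, 96271457 to 96276595), supplied most of the H222P reads, with 3 reads in wild type and 40 (1.51 CPM) in H222P, a log2 ratio of 3.76 (2.31 to 6.30). Hoxa9, a gene of blood progenitors and the limb, had 1 and 8 reads (ratio 6.63, 1.25 to 415). Hoxd9 had 6 reads in each library, a ratio of 1.17 (0.313 to 4.38).

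Beyond group 9 each gene had 6 reads or fewer in either library. Hoxd13, a gene of the digits and hindgut, had 0 reads in wild type and 6 in H222P. The 95% counting interval of its ratio starts at 1.38 and has no upper end. Hoxa13 had 2 reads in each library. Hoxa10 had 0 and 2 reads, and Hoxd10 and Hoxd12 each had 0 and 1, too few for a ratio. The other 8 genes (Hoxa11, Hoxb13, Hoxc9, Hoxc10, Hoxc11, Hoxc12, Hoxc13 and Hoxd11) had 0 reads in both, so a level of up to 0.0968 CPM in wild type and 0.113 CPM in H222P is allowed by counting. Transcripts of cluster c thus ended at Hoxc8 in both libraries at this depth.

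The make-up of the Hox reads within a library does not depend on the scaling between libraries. Group 5 held 38.4% of wild-type Hox reads (95% interval 36.3 to 40.6) and 27.9% of H222P Hox reads (26.5 to 29.3). Hoxa5 alone held 28.2% (26.3 to 30.3) and 17.6% (16.4 to 18.8). Group 2 had a lower share in H222P as well, at 13.9% (12.4 to 15.5) against 10.8% (9.81 to 11.8).

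The share of several other groups was higher in H222P. Group 3 went from 20.8% (19.0 to 22.6) to 24.0% (22.7 to 25.4), and group 4 from 14.4% (12.9 to 16.1) to 19.2% (18.0 to 20.5). Group 7 went from 1.36% (0.897 to 1.97) to 4.78% (4.13 to 5.50), and group 8 from 2.67% (2.00 to 3.48) to 4.63% (3.99 to 5.33). Group 6 between them was lower in H222P, at 5.74% (4.76 to 6.85) against 4.78% (4.13 to 5.50), with overlapping intervals. Groups 6 to 13 together held 10.4% of Hox reads in wild type (9.06 to 11.8) and 15.9% in H222P (14.7 to 17.1), and the intervals do not overlap. The coarser division did not show a shift between anterior and central genes: groups 1 to 3 held 36.8% (34.7 to 39.0) in wild type and 37.0% (35.5 to 38.5) in H222P.

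**Figure D3:**
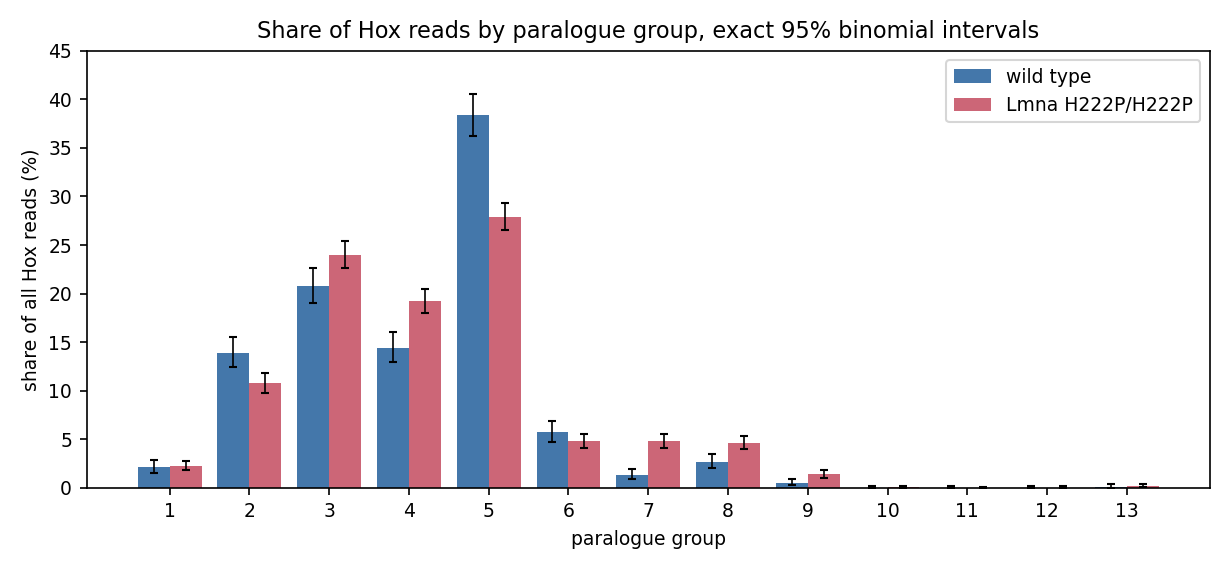
Share of all Hox reads (%) held by each paralogue group in the wild-type library (blue) and the H222P library (red), with bars for the exact 95% binomial interval. Group 5 has the largest share in both libraries, at 38.4% and 27.9%. Groups 3, 4 and 7 to 9 are among those with larger shares in the H222P library.

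The ratio did not climb evenly along the clusters. The log2 ratio was compared with the paralogue number over genes that all share the same 2 libraries. For the 11 genes with at least 1 CPM in wild type, Pearson's r was 0.34 and Spearman's rho −0.04. Both were higher over the 15 genes whose mean reached 1 CPM, at 0.52 and 0.34. Genes with 20 or more reads in total gave 0.38 and 0.26 over all 21. Of these, the 7 in cluster a gave 0.66 and 0.54, and the 9 in cluster b 0.60 and 0.48. Unlike the set of 11, each of these sets admits some genes only through the H222P library. The sums of high and low groups were set side by side within each cluster. Groups 6 to 13 against groups 1 to 5 differed by 9.36-fold (5.86 to 15.7) against 1.95-fold (1.79 to 2.14) in cluster a and by 3.11-fold (2.57 to 3.78) against 2.07-fold (1.90 to 2.24) in cluster b, but by 2.34-fold (1.05 to 5.60) against 5.75-fold (4.35 to 7.72) in cluster c and by 1.82-fold (1.10 to 3.07) against 3.51-fold (1.83 to 7.17) in cluster d. The intervals overlap in clusters c and d. The higher groups of clusters c and d rest on few reads, 10 and 20 in cluster c and 27 and 42 in cluster d. In cluster a each sum leans on 1 gene. Hoxa5 held 561 of the 808 wild-type reads and 685 of the 1350 H222P reads of groups 1 to 5. Hoxa7 held 9 of the 20 wild-type reads and 119 of the 160 H222P reads of groups 6 to 13. Within clusters a and b, Hoxa5, Hoxb5 and Hoxb6 had ratios of 1.43, 1.66 and 1.67, below those of Hoxa4 and Hoxb4 before them and of Hoxa7, Hoxb7 and Hoxb8 after them. The interval of Hoxb4 (1.87 to 2.69) overlaps those of Hoxb5 and Hoxb6, so that step is not resolved by counting.

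Levels between genes were compared per kilobase of annotated exon (CPM per kb). Hoxa5 stood first in both libraries, at 9.65 CPM per kb (8.86 to 10.5) in wild type and 13.8 (12.8 to 14.9) in H222P. In wild type it was followed by Hoxb4 at 2.33 (2.00 to 2.69), Hoxb3 at 2.30 (2.05 to 2.57), Hoxb2 at 2.16 (1.89 to 2.45) and Hoxb5 at 1.99 (1.71 to 2.31), whose intervals overlap, so their order is not resolved. Hoxb6 and Hoxa4 came next, at 1.59 (1.29 to 1.94) and 1.36 (1.05 to 1.72). In H222P, Hoxa4 moved from rank 7 to rank 2, at 5.87 CPM per kb (5.17 to 6.65), although its interval overlaps those of Hoxb3 at 5.49 (5.06 to 5.94) and Hoxb4 at 5.21 (4.68 to 5.78). Hoxb8 moved from rank 11 to rank 8. With the longest transcript as the length, Hoxa4 moved from rank 7 to rank 3 and Hoxb8 from 13 to 11. The same 10 genes ranked highest in wild type when the longest transcript, or only exon sequence not shared on the same strand, was taken as the length.

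The clusters also hold antisense and other noncoding genes, some of which overlap Hox exons. In the annotation 46 other genes lie between the outermost Hox genes, of which 18 had reads and 8 had a mean of at least 0.5 CPM. Hoxb3os, antisense to Hoxb3 and Hoxb2, had a log2 ratio of 0.63 (0.19 to 1.08) from 77 and 102 reads. Hoxb5os had 11 and 38 reads (1.97, 1.02 to 3.13), and Hoxaas2 had 30 and 78 reads (1.59, 0.98 to 2.26).

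The remaining entries of cluster a at this level did not share 1 direction. The coding entry 5730596B20Rik had 14 and 42 reads (log2 ratio 1.78, 0.91 to 2.80), whereas Hoxaas3 had 43 and 36 reads (−0.03, −0.71 to 0.64), Gm15050 had 30 and 21 (−0.28, −1.17 to 0.56) and Hotairm1 15 and 21 (0.70, −0.31 to 1.77), with intervals that include 0. The pseudogene Gm11539 of cluster b had 20 and 14 reads (−0.27, −1.39 to 0.77). The noncoding gene Hotair, between Hoxc11 and Hoxc12, had 0 reads in both libraries. The 7 microRNA entries of the clusters, among them Mir10a and Mir196b, summed to 1 read in each library.

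The 4 protein-coding genes just outside the clusters with a mean of at least 1 CPM were within 2-fold. Skap2, beyond the anterior end of cluster a, with 817 and 781 reads, differed by 0.16 on the log2 scale (0.02 to 0.30). Cluster c lies between Calcoco1, at a log2 ratio of −0.56 (−0.65 to −0.46), and Smug1, at −0.31 (−0.46 to −0.16). Mtx2, beyond Hoxd1, was at −0.59 (−0.65 to −0.53). The flanks of cluster b, Ttll6 and Skap1, had 8 wild-type reads or fewer, as did the homeobox genes Evx1 (4 and 8 reads) and Evx2 (0 in both) beyond the posterior ends of clusters a and d.

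Hox proteins bind DNA with the TALE homeodomain cofactors of the Pbx, Meis and Pknox families. Of 9 such genes, 8 had a mean of at least 1 CPM, and 0 of these were at least 2-fold apart, with a median log2 ratio of 0.42 against −0.01 over all genes at that level. Of all 14716 genes at that level 13200 lay within 2-fold, so the count is near the background. Meis2 had 2373 and 3060 reads (log2 ratio 0.59, 0.52 to 0.67), Meis1 2104 and 2543 (0.50, 0.42 to 0.58), and Pknox2, the highest of those at 1 CPM, 178 and 280 (0.88, 0.60 to 1.16). Pbx2, Pbx3, Meis3 and Pknox1 lay between 0.19 and 0.61, and Pbx4 had 14 and 22 reads.

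In a list of 24 Polycomb, Trithorax, retinoic acid, Cdx and hindbrain regulators of Hox genes, 19 had a mean of at least 1 CPM, and 0 of these were at least 2-fold higher or lower (median log2 ratio 0.18), again near the background. Suz12, a core Polycomb subunit with the highest mean CPM of the list over both libraries, had 4577 and 4591 reads (0.23, 0.17 to 0.29). Among those with a mean of at least 5 CPM, Bmi1, of Polycomb complex PRC1, was lowest at −0.41 (−0.49 to −0.33), and Cyp26b1, which breaks down retinoic acid, highest at 0.63 (0.37 to 0.89). Aldh1a2, which makes retinoic acid in the heart's outer layer and inflow, had 2444 and 1941 reads (−0.11, −0.19 to −0.02). Among the members under a mean of 1 CPM, Egr2, a hindbrain segmentation factor, had 18 and 4 reads (−1.81, −3.97 to −0.34), and Cyp26a1, which breaks down retinoic acid, 13 and 32 (1.49, 0.56 to 2.58); both were named after their values were seen. The caudal genes Cdx1 and Cdx4 had 0 reads in both libraries. Cdx2, picked out after its values were seen, had 0 and 9.

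RNA of cells other than heart muscle also differed between the libraries. Hepatocyte markers summed to 36.2 CPM in wild type and 6341 CPM in H222P, with all 15 at least 2-fold higher, and erythroid precursor markers to 729 and 2713 CPM, with 10 of 12 at least 2-fold higher. For comparison, 5.95% of all genes at that level were at least 2-fold higher and 4.35% lower. Lung and foregut mesenchyme markers summed to 133 and 249 CPM (3 of 10 higher, 0 lower), cartilage and body wall markers to 111 and 196 CPM (2 of 4 measured higher), and neural markers to 33.6 and 61.1 CPM (2 of 6 measured higher). In the neural list Sox1, Neurog1, Neurog2 and Olig2, which define neural tube progenitors, had 0 reads in both libraries, and Lhx1 had 0 in wild type. In the cartilage list Matn1 had 0 reads in wild type and Pax1 in H222P. Markers of neural crest, glia and autonomic neurons summed to 103 and 137 CPM, with 5 of 8 measured at least 2-fold higher. Hand2, which is also in the limb list, held 75.9 and 71.7 CPM of these sums.

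The remaining lists were closer in sum. Markers of blood stem and myeloid cells summed to 227 and 228 CPM (3 of 9 measured higher), of lung and foregut epithelium to 211 and 251 CPM (1 of 10 higher, 2 lower), of kidney and urogenital tissue to 61.4 and 81.3 CPM (1 of 4 higher), of limb to 158 and 175 CPM (1 of 6 higher) and of somite and skeletal muscle to 190 and 204 CPM (1 of 4 higher). Among their members at 0 reads in 1 library were Elane, Pax7, Myf5 and Lhx1 in wild type and Pax8 in H222P. The following genes of these lists were picked out after their values were seen. The sums of several lists follow their most abundant members. In the limb list these were Hand2 (75.9 and 71.7 CPM) and Tbx5 (61.7 and 56.3 CPM). In the somite and skeletal muscle list it was Acta1 (177 and 183 CPM). The near-equal sum of the blood stem and myeloid list combines members that differ in direction. Cd34 (124 and 77.2 CPM) and Csf1r (31.0 and 21.5 CPM) were lower in H222P, though 0 were at least 2-fold lower. The 3 at least 2-fold higher were Myb (2.29 and 19.4 CPM), Mpo (0.807 and 15.1 CPM) and Runx1 (2.87 and 9.78 CPM). Barx1, a gene of stomach mesenchyme, was at a log2 ratio of 7.41 (6.51 to 8.71) from 8 and 1234 reads. Foxf1, of gut and lung mesenchyme, had 451 and 1543 reads (2.00, 1.85 to 2.16). In the same list the lung mesenchyme genes Tbx4, with 425 and 202 reads (−0.84, −1.10 to −0.60), and Wnt2, with 331 and 182 (−0.63, −0.91 to −0.37), were lower in H222P. So were the lung epithelium genes Nkx2-1, with 381 and 161 reads (−1.01, −1.29 to −0.75), and Sftpc, with 211 reads and 1 read (a log2 ratio of −6.91). Ret, of enteric nerve precursors, had 42 and 432 reads (3.57, 3.13 to 4.08), and Pitx1, of the hindlimb field and stomatodeum, 3 and 535 (7.48, 6.15 to 9.99). The 10 cardiomyocyte markers had a median log2 ratio of −0.75, with 4 at least 2-fold lower. The part of these other tissues in the Hox values was not tested.

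**Figure D4:**
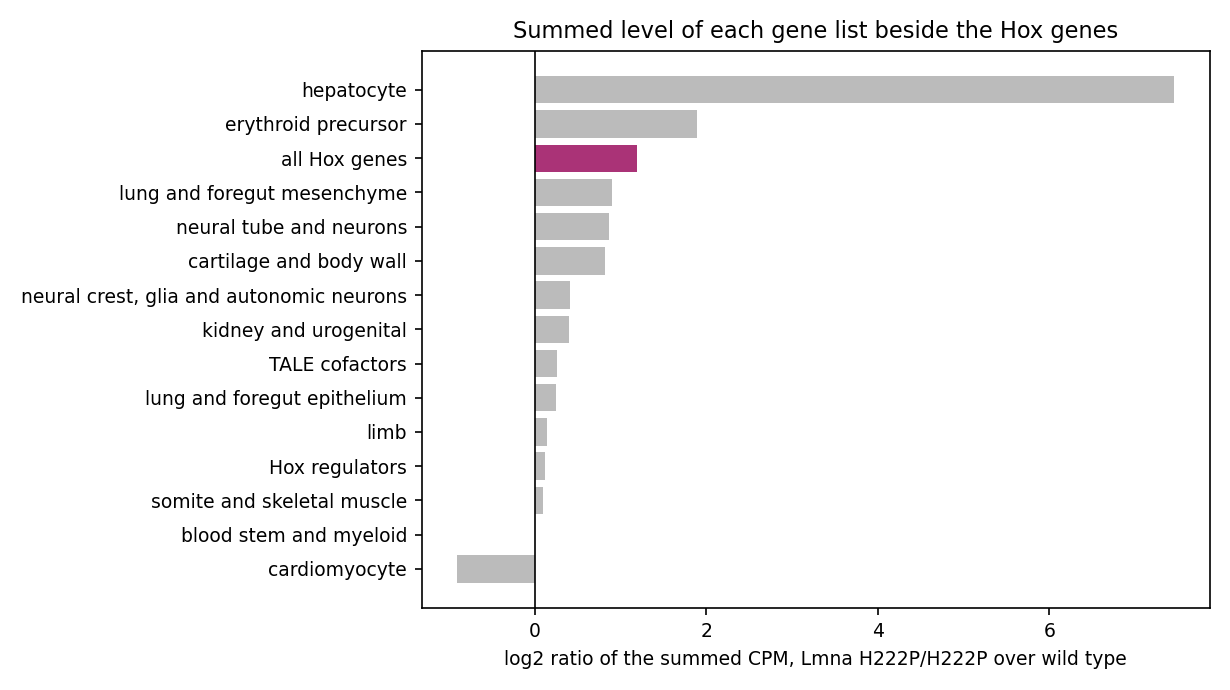
Log2 ratio of the summed CPM, H222P over wild type (horizontal axis), for the 14 gene lists (grey) and for all Hox genes (purple), 1 library per genotype and so no error bar. The Hox sum, at 1.20, lies below the hepatocyte and erythroid lists (7.45 and 1.90) and above the cardiomyocyte list (−0.90). A sum follows the most abundant genes of its list.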

How the data were processed

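Hearts of wild-type and Lmna H222P/H222P mouse embryos were profiled, 1 library each, grouped by genotype. What the authors deposited are raw read counts, not normalized. STAR, HTSeq, DESeq and mm10 stand in the submitters' processing notes with neither role nor version, and the release of the annotation was not given in the sources used here. Per the file headers, multiply mapped and ambiguous reads were tallied apart. These summary entries were left out. Of the deposited counts the reverse-strand column was used, which exceeded the forward-strand column by a factor of 19.3 in wild type and 20.5 in H222P.

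Libraries were scaled by TMM factors (edgeR 4.0.16, R 4.3.3), and log2 ratios used a prior count of 0.5 per library. Intervals are Clopper-Pearson for ratios and shares, and exact Poisson for levels (scipy 1.17.1, Python 3.11.15). They cover counting error only. Calls required a mean of at least 1 CPM and 2-fold. No test of genotypes was possible. The steps were checked on simulated counts. Coordinates, biotypes and exon lengths come from GENCODE M21 (GRCm38), matched by symbol for all 39 genes, and promoter sequences from RefSeq (GRCm38.p6). A few results on single genes are not reported here, though sums and counts include those genes. Other genes were named by rule: the cofactors, the most abundant and extreme regulators, cluster genes at 0.5 CPM and the nearest coding genes outside each cluster. Others are stated to be picked after their values were seen. The members and lists were chosen with earlier results of these data known. The alternatives were other scalings (DESeq2 1.42.0 size factors, total counts, TMM without liver, erythroid and blood genes), filters, a prior count of 5, the unstranded column, thinning, exon lengths and, added after seeing the data, sums without Hoxa5.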

Additional observations from a re-analysis of the deposited data

Results flagged for a closer look

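Reads on the strand opposite to the Hox genes lie outside the Hox counts used above, and were higher in the H222P library than in wild type. Where an annotated antisense gene overlaps a Hox exon, the same reads can stand in the counts given above for that gene. Over the 39 genes they numbered 118 in wild type (3.81 CPM) and 192 in H222P (7.25 CPM), a log2 ratio of 0.93 (95% counting interval 0.59 to 1.27). They made up 5.61% and 4.70% of the reads of both strands at these genes. Over all genes the forward-strand column held 1696952 reads beside 32669225 in the reverse-strand column in wild type, and 1225711 beside 25120790 in H222P. The shares at the Hox genes were thus near the level over all genes. Hoxb3, of whose exon length 52.9% is overlapped by exons of Hoxb3os, held 59 and 81 of them. Hoxb2, also overlapped by Hoxb3os, held 15 and 21. In the counts above Hoxb3os had 77 and 102 reads, which can be largely the same reads. The difference between genotypes has no replicate check and was not tested.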

How the results depend on the processing

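All 15 Hox genes whose mean reached 1 CPM kept a ratio above 1 under the alternatives that change scaling, prior count, strand column or depth (the filters cannot change a ratio), and the number at least 2-fold lower stayed at 0. The number at least 2-fold higher (10) was 9 with a prior count of 5 or with thinning and 11 with total counts or the unstranded column, but 20 of 31 with no filter, where 17.4% of all genes pass, and 4 of 7 at a mean of at least 5 CPM. The share of all genes at 5 CPM was not computed, so that last count has no background beside it. Total counts moved the median of all genes from −0.01 to 0.15 on the log2 scale, and with it the Hox sum from 1.20 to 1.35. Without Hoxa5 the sum was 1.40. The median of groups 1 to 3 was 1.04, and 1.19 with total counts, 1.25 at 5 CPM, 1.44 for the unstranded column, 0.96 with a prior count of 5 and 0.92 with thinning, the last 2 under 2-fold. The median of groups 4 to 8 was 2.10, and 2.25 with total counts, 1.96 with a prior count of 5, 1.97 for the unstranded column, 1.19 with no filter and 0.95 at 5 CPM, so it depends on which genes the filter admits and the sums are the firmer values. Groups 9 to 13 gave a median (2.18) only with no filter, and it rests on 4 of 8 genes with 0 wild-type reads, whose fitted ratios depend on the prior count. In the unstranded column Hoxb2 had 30 wild-type reads in place of 233 and Hoxb3 77 in place of 303. Exons of the antisense gene Hoxb3os overlap 27.3% of the exon length of Hoxb2 and 52.9% of that of Hoxb3. Hoxa5, without such overlap, had 563 reads in place of 561. The cause of the lower counts was not tested. No paired analysis was possible because each genotype has 1 library. At these depths genes under 3 reads in both libraries could not be compared.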
